A study of Homo sapiens with 24 samples.

Results

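Aminoacyl-tRNA synthetases, the enzymes that load each tRNA with its amino acid, were followed as a family of 35 listed genes, 19 for cytosolic enzymes and 16 for mitochondrial enzymes (symbols ending in 2). Each gene was found by its current or former symbol and was represented by its brightest probe set that belongs to no other gene. Of the 35 genes, 32 had such a probe set (17 cytosolic and 15 mitochondrial), out of 19775 genes with one in the whole data set. All 32 passed the filter on low values, log2 4 or more on at least 3 arrays, and were among the 10661 genes tested. The probe sets of MARS1, QARS1 and TARS2, the cytosolic enzymes for methionine and glutamine and the mitochondrial enzyme for threonine, are shared with a microRNA gene in the annotation, so these 3 genes have no value here. The study used 4 established lines of T-cell acute lymphoblastic leukaemia (TALL-1, RPMI-8402, P12-ICHIKAWA and SUPT11), each exposed for 16 h to NVS-ZP7-3 or to the solvent DMSO alone, with DMSO at 0.5% in both. Each treatment of each line was measured on 3 arrays, which gives 24. NVS-ZP7 compounds are known as inhibitors of the zinc transporter ZIP7, but the labels name no target and no dose. Each line is a single cell line, and nothing in the labels tells whether its 3 arrays came from separate cultures. The p-values therefore measure only how far these samples spread, which may be technical variation. In bulk RNA, fewer cells of a kind and less RNA per cell cannot be told apart.

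A synthetase binds its amino acid, ATP and the matching tRNA, and its product feeds the ribosome. Cytosolic and mitochondrial protein synthesis mostly use separate enzymes, all encoded in the nucleus, while glycyl-tRNA synthetase (GARS1) and lysyl-tRNA synthetase (KARS1) serve both compartments from a single gene. Several cytosolic enzymes, among them EPRS1, IARS1, LARS1, KARS1 and RARS1, are held together in the multisynthetase complex. Many cytosolic synthetase genes are known targets of ATF4, the transcription factor of the integrated stress response, which binds C/EBP-ATF elements together with C/EBP partners.

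Values are log2 expression as deposited, with background at a floor of 2.18, and arrays of the same group correlated at 0.993 to 0.998 across genes, against 0.735 to 0.873 for arrays of different lines. All 8 T-lineage markers were measured, and 6 or more of them stood at log2 4 or above in every group. Their summed log2 level was 68.58 to 70.32 in RPMI-8402 with NVS-ZP7-3, against 75.46 to 75.81 with DMSO, and 74.32 to 78.48 in SUPT11 with NVS-ZP7-3, against 72.48 to 72.58 with DMSO. The groups did not overlap in these lines. They overlapped in TALL-1 (71.36 to 79.7 with NVS-ZP7-3, against 74.06 to 76.69 with DMSO) and in P12-ICHIKAWA (78.04 to 79.22, against 78.98 to 79.57). The part of these shifts in the synthetase values was not tested. Of 4 epithelial and stromal markers, COL1A2, KRT18 and EPCAM were at the floor in every line. COL1A1 was above the floor in P12-ICHIKAWA, in SUPT11 with DMSO and in RPMI-8402, where its mean was log2 4 or more in both groups. On 3 arrays, transcripts foreign to the line stood out, that is, genes at the floor on its other arrays and bright elsewhere: replicate 2 of TALL-1 with NVS-ZP7-3 (31 of 64 such foreign genes), replicate 2 of SUPT11 with NVS-ZP7-3 (13 of 36) and replicate 3 of RPMI-8402 with DMSO (4 of 8). The haemoglobin gene HBB, an erythroid marker, stood at 11.45, 8.17 and 7.96 in P12-ICHIKAWA with NVS-ZP7-3 and at or near the floor on its DMSO arrays. Of 5 erythroid markers 2 were measured, HBB and ALAS2, and ALAS2 was at the floor in every group but RPMI-8402 with DMSO. Their summed level was 10.14 to 13.63 in P12-ICHIKAWA with NVS-ZP7-3, against 4.364 to 4.472 with DMSO, and 4.364 to 10.14 in TALL-1 with NVS-ZP7-3, against 4.364 to 4.504 with DMSO. It was 4.365 to 12.79 in SUPT11 with NVS-ZP7-3, against 4.365 to 4.489 with DMSO, and 10.81 to 15.17 in RPMI-8402 with NVS-ZP7-3, against 4.504 to 21.06 with DMSO. The summed level of 5 myeloid markers was 14.9 to 17.78 in P12-ICHIKAWA with NVS-ZP7-3, against 12.08 to 13.04 with DMSO, with S100A8, S100A9 and CD14 at the floor. The groups overlapped in the other lines. The sum was 14.05 to 19.33 in RPMI-8402 with NVS-ZP7-3, against 11.98 to 32.8 with DMSO. It was 11.26 to 19.35 in TALL-1 with NVS-ZP7-3, against 11.25 to 17.63 with DMSO. In SUPT11 it was 11.21 to 15.92 with NVS-ZP7-3, against 11.26 to 13.62 with DMSO. These sums include foreign transcripts on the 3 arrays named above. The 3' minus 5' difference of the ACTB control probe sets, a sign of RNA quality, was higher with NVS-ZP7-3 than with DMSO by 0.487 in TALL-1 and by 0.302 in RPMI-8402 (exact permutation test, two-sided, p = 0.1 in each, the smallest that 3 against 3 arrays allow).

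With NVS-ZP7-3, most cytosolic synthetase transcripts were higher in TALL-1 and RPMI-8402, a few were higher in P12-ICHIKAWA, and none was called in SUPT11. The mitochondrial enzymes were lower or not called in RPMI-8402 and had no call in SUPT11 or P12-ICHIKAWA. In TALL-1 few of them were called, a smaller share in either direction than that of all genes tested. Of the 17 cytosolic enzymes measured, 11 rose and 3 fell in TALL-1, where 22.3% of all genes tested rose and 19.6% fell (limma adjusted p below 0.05 over all 10661 genes). In RPMI-8402, 9 rose and 6 fell, against 15.1% and 21.5% of all genes. In P12-ICHIKAWA, 3 rose and none fell, against 4.91% and 2.98% of all genes. No cytosolic enzyme was called in SUPT11, where 1.18% of all genes rose and 0.582% fell by limma. At an unadjusted p below 0.05, AARS1 and WARS1 were higher (2) and VARS1 lower (1) in that line, against 5.07% and 3.63% of all genes. Of the 15 mitochondrial enzymes, 2 rose and 2 fell in TALL-1, 8 fell and none rose in RPMI-8402, and none was called in SUPT11 or P12-ICHIKAWA. On average over the 4 lines, 11 cytosolic enzymes rose and 6 fell and 1 mitochondrial enzyme rose and 6 fell, against 22.4% and 24.5% of all genes. At an unadjusted p below 0.05, 2 mitochondrial enzymes were lower in SUPT11 (AARS2 and CARS2) and none was higher. In P12-ICHIKAWA 1 mitochondrial enzyme (MARS2) and 1 cytosolic enzyme (FARSB) were lower at that level and 5 cytosolic enzymes (AARS1, CARS1, IARS1, LARS1 and SARS1) higher, against 8.97% and 11.0% of all genes. In either direction, calls were made for 41.9% of all genes in TALL-1, 36.6% in RPMI-8402, 7.89% in P12-ICHIKAWA and 1.76% in SUPT11.

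Without any model, the 3 treated arrays lay all above the 3 control arrays for 11 cytosolic enzymes in TALL-1 and all below for 5, against 25.5% and 23.3% of all genes. In RPMI-8402 they lay all above for 10 and all below for 6 (20.5% and 28.7% of all genes), in P12-ICHIKAWA for 4 and 0 (11.9% and 9.50%), and in SUPT11 for 2 and 2 (8.79% and 7.77%). Among the mitochondrial enzymes they lay all above for 3 and all below for 3 in TALL-1, and for 1 and 9 in RPMI-8402. In P12-ICHIKAWA 1 mitochondrial enzyme was all below and in SUPT11 2 were, with none all above in either.

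The median log2 change of the cytosolic enzymes was 0.52 in TALL-1, 0.19 in RPMI-8402, 0.07 in P12-ICHIKAWA and 0.01 in SUPT11. That of the mitochondrial enzymes was -0.01 in TALL-1, -0.34 in RPMI-8402, -0.05 in P12-ICHIKAWA and -0.09 in SUPT11. Over all genes tested the median was 0.00 in TALL-1, SUPT11 and P12-ICHIKAWA and -0.02 in RPMI-8402. Set against the DMSO mean of its line, the cytosolic median exceeded the mitochondrial one on every NVS-ZP7-3 array. The excess was 0.65, 0.54 and 0.49 in TALL-1 and 0.49, 0.43 and 0.53 in RPMI-8402. It was smaller on the SUPT11 arrays (0.04, 0.06 and 0.12) and the P12-ICHIKAWA arrays (0.17, 0.10 and 0.08). In the plot of changes by line, the 17 cytosolic enzymes spread widely to both sides in TALL-1 and RPMI-8402 and gather near 0 in SUPT11.

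**Figure D1:**
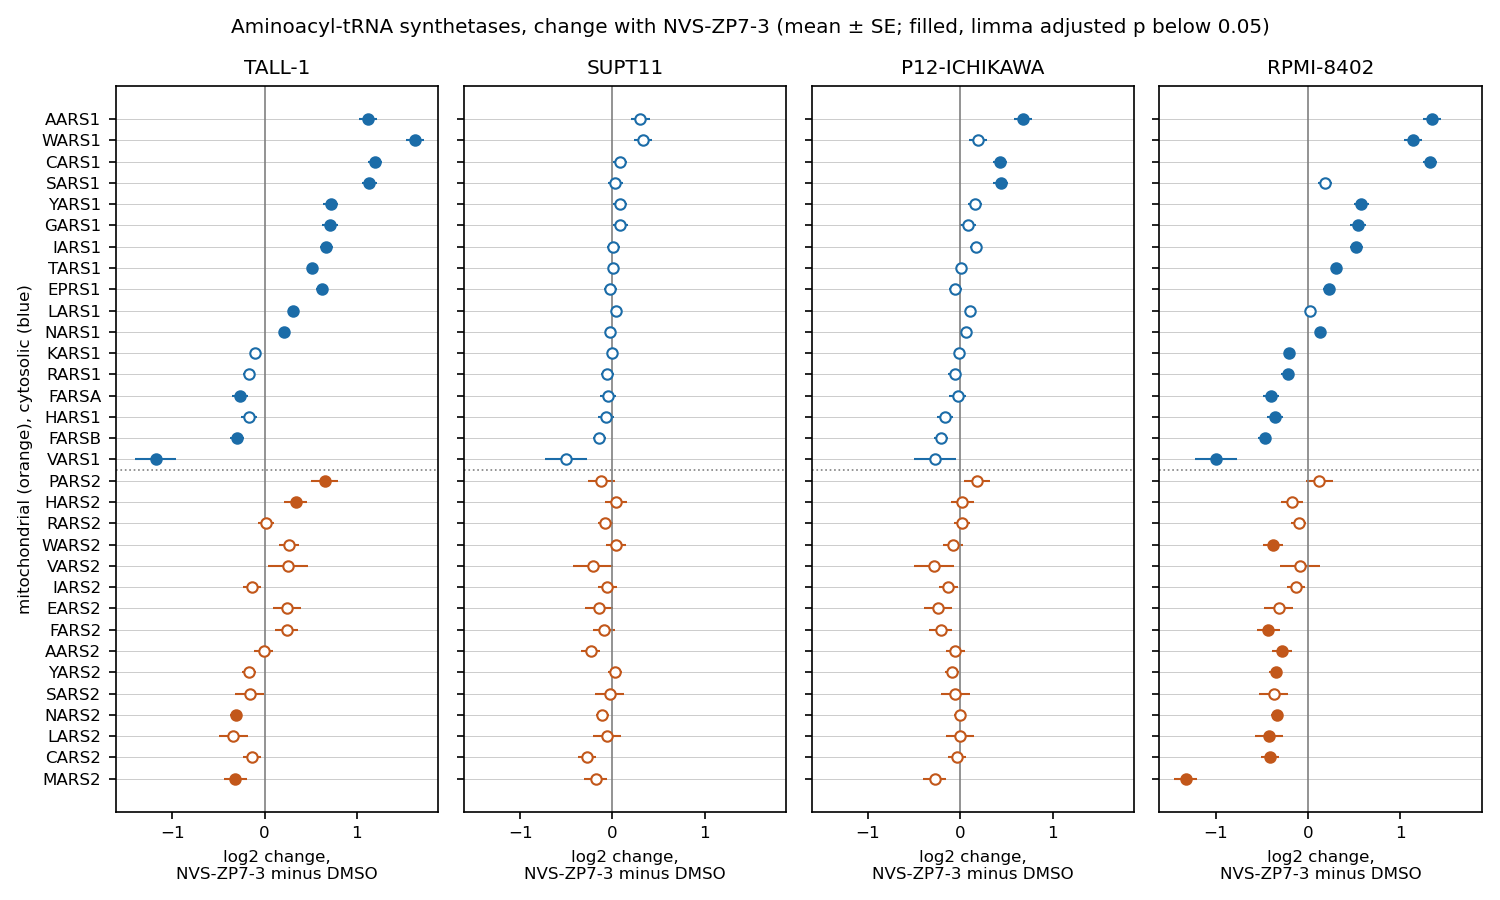
Log2 change with NVS-ZP7-3 (mean of 3 treated arrays minus mean of 3 DMSO arrays, with the limma standard error as a bar) for 17 cytosolic (blue, upper) and 15 mitochondrial (orange, lower) synthetases, 1 panel per line. Filled points have an adjusted p below 0.05: 14 blue points are filled in TALL-1, 15 in RPMI-8402, 3 in P12-ICHIKAWA and none in SUPT11.

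Promoter sequences, 250 bases before to 50 bases after the annotated start, were in the RefSeq table (GRCh38.p14) for 30 of the 35 genes, and they are shown here because ATF4 is known to bind a C/EBP-ATF element at many of these genes. LARS1, VARS1, YARS1, AARS2 and VARS2 are not in that table. Both strands were searched for TGATGNAA and for TGATGCAA, which is a stricter form of it, so that each of its matches also counts for TGATGNAA. Some genes have more than 1 annotated start, and a gene was counted where any of its windows held a match. TGATGNAA was found for 7 of 16 cytosolic genes and 1 of 14 mitochondrial ones, against 4.46% of all 27305 genes in the table. TGATGCAA was found for 6 of 16 cytosolic genes and for none of the 14 mitochondrial ones, against 1.08% of all genes. Of 16 genes of the ATF4 pathway with a promoter there, 5 held TGATGNAA (ATF3, CEBPG, CHAC1, ASNS and SLC3A2) and 2 held TGATGCAA, while ATF4, DDIT3 and TRIB3 held neither. Among the cytosolic genes with a promoter and a measured change, TGATGNAA was present in 6 of the 9 that rose in TALL-1 and in none of the 5 that did not rise. The remaining match was in MARS1, which has no expression value, and QARS1 had no match. The windows of 30 bases below run 5′ to 3′ along the gene's strand, with the match in capitals (TTGCATCA and TTTCATCA are matches on the opposite strand). They hold the 6 measured cytosolic genes with a match, the mitochondrial YARS2, and CEBPG and CHAC1, the 2 genes of the ATF4 pathway with the stricter form.
AARS1, chr16:70289675-70289704, minus strand: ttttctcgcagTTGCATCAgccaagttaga
CARS1, chr11:3057407-3057436, minus strand: cggggcggcggTTGCATCAgattctaggaa
IARS1, chr9:92293692-92293721, minus strand: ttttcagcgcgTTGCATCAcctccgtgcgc
TARS1, chr5:33440956-33440985, plus strand: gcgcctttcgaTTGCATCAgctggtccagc
NARS1, chr18:57621804-57621833, minus strand: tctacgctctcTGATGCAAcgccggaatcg
GARS1, chr7:30594834-30594863, plus strand: ttacgcggcgaTTTCATCAtgctccgagcc
YARS2, chr12:32756076-32756105, minus strand: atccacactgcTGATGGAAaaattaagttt
CEBPG, chr19:33374060-33374089, plus strand: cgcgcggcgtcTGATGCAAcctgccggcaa
CHAC1, chr15:40953251-40953280, plus strand: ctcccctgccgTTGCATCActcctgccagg
In CARS1, IARS1, TARS1 and NARS1 the match began within 14 bases of the annotated start, and in GARS1 33 bases before it. In AARS1 it began 187 bases before the start, and in YARS2 197 bases before it. WARS1, SARS1 and EPRS1 rose in TALL-1 without a match in this window. A match describes letters in a window and shows neither binding nor a cause, and a window without one says only that these letters are not in it.

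**Figure D2:**
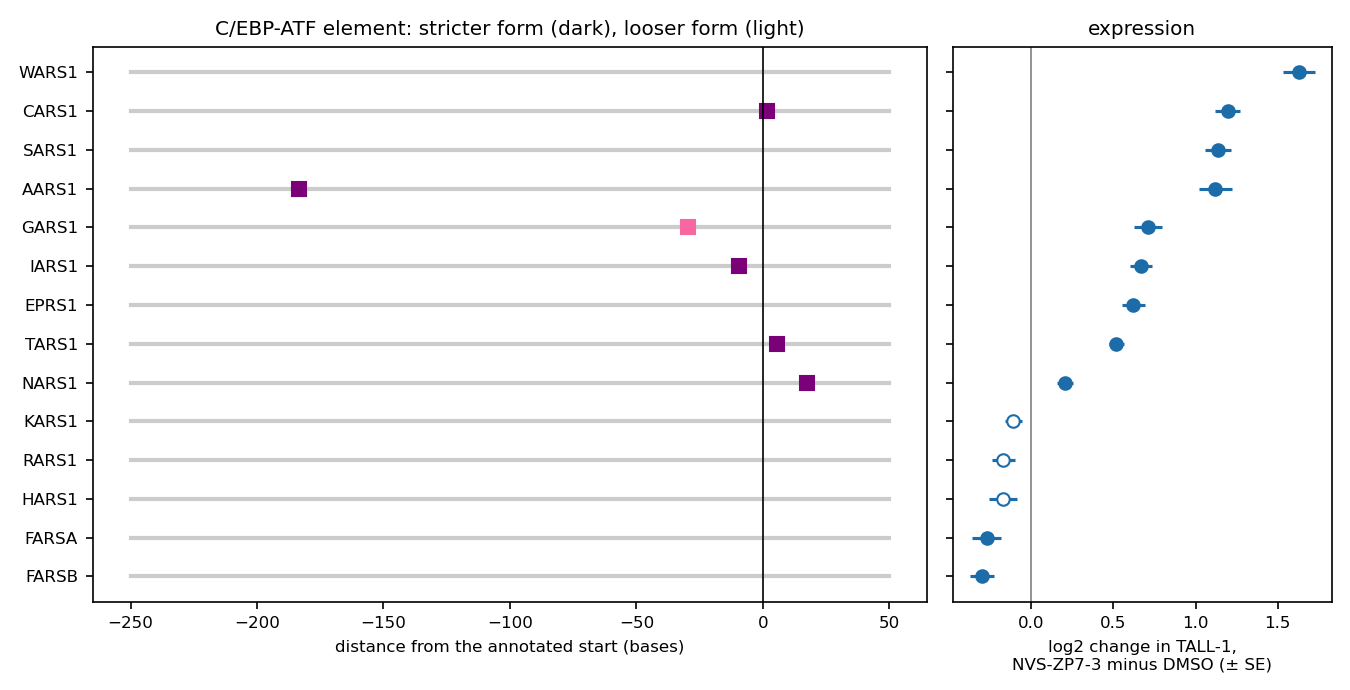
Left, position of C/EBP-ATF matches relative to the annotated start (bases) in the promoters of 14 measured cytosolic synthetases, with TGATGCAA dark and other forms of TGATGNAA light. Right, log2 change of the same gene in TALL-1 (NVS-ZP7-3 minus DMSO, ± SE, filled where adjusted p is below 0.05), sorted by change. The 6 genes with a match lie among the 9 that rose.

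AARS1, which charges alanine tRNA, had the largest mean change over the lines of all members, 0.86 ± 0.049 (SE, adjusted p = 1.08e-10). In TALL-1 it read 12.89, 12.90 and 12.80 with NVS-ZP7-3, against 11.96, 11.62 and 11.66 with DMSO. In RPMI-8402 it read 12.21, 12.12 and 12.27 with NVS-ZP7-3, against 10.88, 10.98 and 10.73 with DMSO. Treated arrays were far above control arrays in both lines, and the groups did not overlap in SUPT11 or P12-ICHIKAWA either. In P12-ICHIKAWA the values were 11.84, 11.96 and 11.68 with NVS-ZP7-3, against 11.22, 11.28 and 10.93 with DMSO. In SUPT11 they were 11.78, 11.65 and 11.75 with NVS-ZP7-3, against 11.36, 11.44 and 11.48 with DMSO. The change was 2.53-fold in RPMI-8402 (1.34 ± 0.099, adjusted p = 4.44e-09), 2.17-fold in TALL-1 (1.12 ± 0.099, adjusted p = 4.04e-08) and 0.68 ± 0.099 on the log2 scale in P12-ICHIKAWA (adjusted p = 0.000165). In SUPT11 it was 0.30 ± 0.099 and missed the threshold (adjusted p = 0.207).

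WARS1, the tryptophan enzyme, which interferon is known to induce, showed the largest single rise, 3.09-fold in TALL-1. Its values there were 11.42, 11.47 and 11.43 with NVS-ZP7-3, against 10.00, 9.75 and 9.69 with DMSO (1.63 ± 0.098, adjusted p = 2.68e-10). In RPMI-8402 they were 10.53, 10.68 and 10.63 with NVS-ZP7-3, against 9.50, 9.51 and 9.41 with DMSO (1.14 ± 0.098, adjusted p = 3.86e-08). Treated and control arrays were clearly apart in both lines. In SUPT11 the values were 9.97, 9.84 and 9.88 with NVS-ZP7-3, against 9.65, 9.48 and 9.57 with DMSO, which did not overlap but missed the threshold (0.33 ± 0.098, adjusted p = 0.143). In P12-ICHIKAWA the groups overlapped, at 10.25, 10.41 and 10.09 with NVS-ZP7-3, against 10.25, 10.10 and 9.83 with DMSO. Of 5 other interferon-linked genes tested, only IRF9, a component of the interferon-activated transcription complex, rose in TALL-1 (1.83) and RPMI-8402 (1.13), and IRF1 fell in both (-1.04 and -0.78). GBP1 and ISG15, which interferon induces, fell in RPMI-8402 (-1.37 and -0.62), and none of the 5 was called in SUPT11 or P12-ICHIKAWA.

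CARS1, the cysteine enzyme, rose in TALL-1, P12-ICHIKAWA and RPMI-8402. Its TALL-1 arrays read 11.46, 11.54 and 11.33 with NVS-ZP7-3, against 10.31, 10.15 and 10.28 with DMSO (1.19 ± 0.074, adjusted p = 3.80e-10). In RPMI-8402 it read 11.20, 11.34 and 11.16 with NVS-ZP7-3, against 10.02, 9.83 and 9.88 with DMSO (1.32 ± 0.074, adjusted p = 8.69e-11). No treated array came near a control array in either line. In P12-ICHIKAWA the values were 10.89, 10.83 and 10.88 with NVS-ZP7-3, against 10.43, 10.58 and 10.31 with DMSO (0.43 ± 0.074, adjusted p = 0.00101). In SUPT11 they were 11.48, 11.32 and 11.42 with NVS-ZP7-3, against 11.33, 11.27 and 11.38 with DMSO, and the groups overlapped. SUPT11 had the highest CARS1 level with DMSO, 11.33 ± 0.051 (SD, n = 3), close to the level of TALL-1 with NVS-ZP7-3 (11.44 ± 0.11). Whether the level with DMSO bears on the change was not tested.

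SARS1, which charges serine tRNA and also loads serine onto the selenocysteine tRNA, rose in TALL-1 and P12-ICHIKAWA and was not called in RPMI-8402. In TALL-1 it read 13.02, 13.00 and 12.89 with NVS-ZP7-3, against 11.98, 11.74 and 11.78 with DMSO (1.14 ± 0.078, adjusted p = 1.53e-09). In P12-ICHIKAWA it read 12.15, 12.19 and 12.12 with NVS-ZP7-3, against 11.64, 11.85 and 11.65 with DMSO (0.44 ± 0.078, adjusted p = 0.00139). In RPMI-8402 the values were 11.52, 11.48 and 11.71 with NVS-ZP7-3, against 11.40, 11.47 and 11.29 with DMSO. These RPMI-8402 groups did not overlap, by a narrow margin, and the change of 0.19 ± 0.078 fell short of the threshold (adjusted p = 0.0729). It passed when the mean of all probe sets stood for the gene (0.38, adjusted p = 2.53e-05), with quantile normalization (0.0435) and with arrays centred on their median (0.0279), and the highest adjusted p over the alternatives was 0.315. In SUPT11 the groups overlapped (12.39, 12.29 and 12.39 with NVS-ZP7-3, against 12.22, 12.39 and 12.37 with DMSO).

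YARS1, the tyrosine enzyme, rose in TALL-1 and RPMI-8402. The TALL-1 arrays read 12.88, 12.87 and 12.73 with NVS-ZP7-3, against 12.26, 11.93 and 12.14 with DMSO (0.72 ± 0.080, adjusted p = 8.03e-07). In RPMI-8402 it read 13.05, 13.13 and 12.97 with NVS-ZP7-3, against 12.43, 12.56 and 12.44 with DMSO (0.58 ± 0.080, adjusted p = 1.54e-05). Treated arrays were the higher ones throughout in these lines. In SUPT11 YARS1 read 12.97, 12.95 and 13.04 with NVS-ZP7-3, against 13.0, 12.83 and 12.88 with DMSO, and in P12-ICHIKAWA 13.30, 13.43 and 13.36 with NVS-ZP7-3, against 13.34, 13.19 and 13.09 with DMSO. Groups overlapped in both. GARS1, the glycine enzyme of both compartments, rose in the same lines. Its TALL-1 values were 13.73, 13.72 and 13.62 with NVS-ZP7-3, against 13.12, 12.93 and 12.88 with DMSO (0.71 ± 0.085, adjusted p = 1.75e-06). Its RPMI-8402 values were 13.54, 13.56 and 13.67 with NVS-ZP7-3, against 13.06, 13.16 and 12.92 with DMSO (0.54 ± 0.085, adjusted p = 5.69e-05). Treated arrays were above all control arrays in both lines. In SUPT11 GARS1 read 13.57, 13.48 and 13.53 with NVS-ZP7-3, against 13.39, 13.48 and 13.44 with DMSO, and in P12-ICHIKAWA 13.45, 13.53 and 13.29 with NVS-ZP7-3, against 13.50, 13.37 and 13.16 with DMSO. It was not called in SUPT11 (0.09) or P12-ICHIKAWA (0.08), where the groups overlapped.

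**Figure D3:**
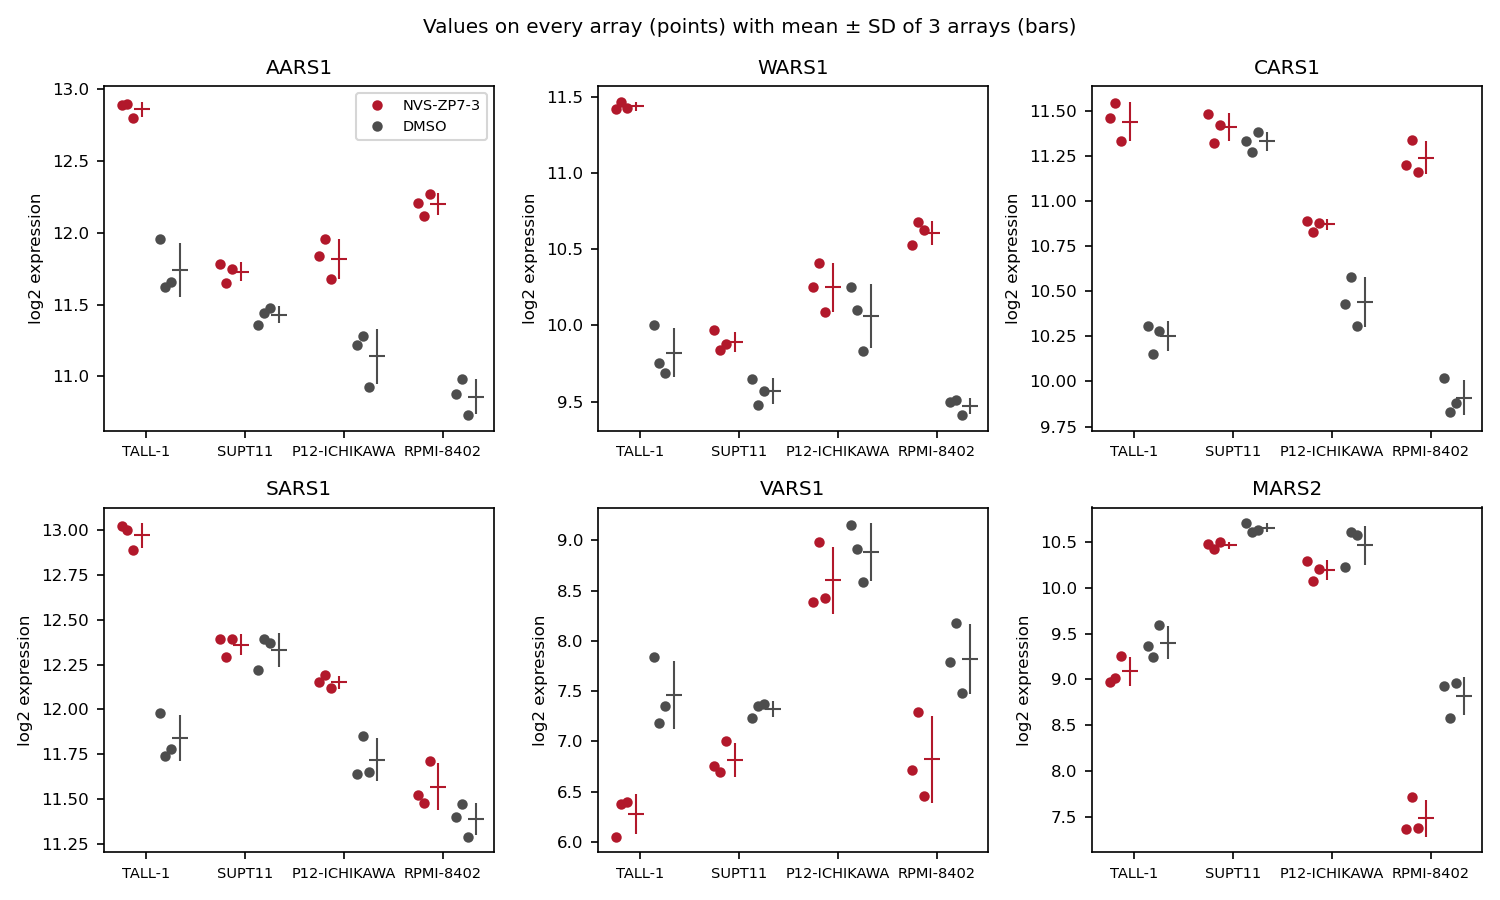
Log2 expression on every array (points) of AARS1, WARS1, CARS1, SARS1, VARS1 and MARS2 in 4 lines, with the mean and SD of each group of 3 arrays beside them. In each line NVS-ZP7-3 (red) is on the left and DMSO (grey) on the right. Red lies above grey for AARS1 in every line, while for VARS1 and MARS2 red lies below in RPMI-8402.

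Among the remaining cytosolic enzymes that rose, IARS1 (isoleucine) changed by 0.67 in TALL-1 and 0.52 in RPMI-8402, and TARS1 (threonine) by 0.52 and 0.31. NARS1 (asparagine) changed by 0.21 and 0.13 in the same lines, the smallest calls of the group. LARS1, the leucine enzyme and a leucine sensor of the mTORC1 pathway, rose in TALL-1 (0.31 ± 0.040, adjusted p = 4.60e-06) and stood at 0.02 ± 0.040 in RPMI-8402. EPRS1 joins glutamate and proline charging in a single chain. Its TALL-1 values were 13.37, 13.27 and 13.22 with NVS-ZP7-3, against 12.82, 12.60 and 12.58 with DMSO (0.62 ± 0.069, adjusted p = 7.86e-07). In RPMI-8402 they were 13.01, 13.02 and 13.06 with NVS-ZP7-3, against 12.86, 12.82 and 12.74 with DMSO (0.23 ± 0.069, adjusted p = 0.0150). The groups did not overlap in these lines, but the RPMI-8402 call was lost without DMSO replicate 3, the array with foreign transcripts (0.20, adjusted p = 0.0636), and with the ACTB difference as a covariate (0.16, adjusted p = 0.176). In SUPT11 the values were 12.87, 12.69 and 12.80 with NVS-ZP7-3, against 12.82, 12.82 and 12.79 with DMSO. In P12-ICHIKAWA they were 13.03, 13.06 and 12.91 with NVS-ZP7-3, against 13.12, 13.12 and 12.93 with DMSO. The EPRS1 groups overlapped in both of these lines.

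The other 6 cytosolic enzymes had negative changes in all 4 lines, and all were called lower in RPMI-8402. VARS1, the valine enzyme, which associates with the elongation factor eEF1, had the largest falls. In TALL-1 it read 6.05, 6.38 and 6.40 with NVS-ZP7-3, against 7.84, 7.18 and 7.35 with DMSO (-1.18 ± 0.23, adjusted p = 0.000337). In RPMI-8402 it read 6.71, 7.29 and 6.46 with NVS-ZP7-3, against 7.79, 8.18 and 7.48 with DMSO (-1.0 ± 0.23, adjusted p = 0.00189). All treated arrays were below all control arrays in both lines, with a wider spread within groups than for AARS1 or CARS1. The RPMI-8402 call was lost in a fit of that line alone (adjusted p = 0.0569). In SUPT11 the values were 6.75, 6.69 and 7.0 with NVS-ZP7-3, against 7.23, 7.35 and 7.37 with DMSO. These did not overlap but missed the threshold (-0.50 ± 0.23, adjusted p = 0.528). In P12-ICHIKAWA the groups overlapped (8.39, 8.98 and 8.43 with NVS-ZP7-3, against 9.15, 8.91 and 8.58 with DMSO).

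FARSA and FARSB encode the subunits of the phenylalanine enzyme, and both fell in TALL-1 (-0.27 and -0.30) and RPMI-8402 (-0.40 and -0.47). A further probe set of FARSB changed by 0.37 in RPMI-8402, opposite to the probe set used, which leaves the direction there uncertain. With the mean of all probe sets FARSB was called in neither line (adjusted p = 0.126 in TALL-1 and 0.937 in RPMI-8402), and the TALL-1 call of FARSA was lost in 4 of 36 fits under the alternatives. Over all members, 29 calls could be set beside a further probe set of the gene past the filter, and 28 had the same sign. HARS1 (histidine), KARS1 (lysine) and RARS1 (arginine) fell in RPMI-8402 by smaller amounts (-0.36, -0.21 and -0.22) and were called in no other line. KARS1, the other enzyme of both compartments, read 13.91, 13.99 and 13.87 in RPMI-8402 with NVS-ZP7-3, against 14.19, 14.15 and 14.06 with DMSO (-0.21 ± 0.052, adjusted p = 0.00382). In TALL-1 it read 13.95, 13.99 and 13.94 with NVS-ZP7-3, against 14.15, 13.97 and 14.09 with DMSO. In SUPT11 KARS1 read 14.26, 14.17 and 14.20 with NVS-ZP7-3, against 14.25, 14.22 and 14.19 with DMSO, and in P12-ICHIKAWA 14.33, 14.32 and 14.24 with NVS-ZP7-3, against 14.38, 14.31 and 14.26 with DMSO. The KARS1 groups were apart in RPMI-8402 and overlapped in the other lines, and its changes were -0.11 in TALL-1, -0.01 in SUPT11 and -0.02 in P12-ICHIKAWA. Under some alternatives KARS1 was called lower in TALL-1, as with the ACTB difference as a covariate (-0.22, adjusted p = 0.033).

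Of the 5 measured synthetases of the multisynthetase complex, EPRS1, IARS1 and LARS1 rose in TALL-1 and none fell, with a median change of 0.31. In RPMI-8402, EPRS1 and IARS1 rose while KARS1 and RARS1 fell, with a median of 0.02. The 12 measured cytosolic enzymes outside the complex had a median of 0.61 in TALL-1 (8 rose and 3 fell) and 0.25 in RPMI-8402 (7 rose and 4 fell). Of all genes tested, 22.3% rose and 19.6% fell in TALL-1, and 15.1% rose and 21.5% fell in RPMI-8402. The 3 falls of 12 in TALL-1 are near that share. AIMP1, a scaffold protein of the complex, was not called in any line, with changes between -0.12 and 0.07. By catalytic fold, the 7 measured class I cytosolic enzymes had a median change of 0.67 in TALL-1 and 0.52 in RPMI-8402. The 9 class II enzymes had 0.21 and 0.13 in the same lines, and EPRS1 holds a domain of each class.

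Among the mitochondrial enzymes the largest change was a fall of MARS2, the methionine enzyme, in RPMI-8402. It read 7.37, 7.72 and 7.39 there with NVS-ZP7-3, against 8.93, 8.58 and 8.96 with DMSO (-1.33 ± 0.12, adjusted p = 1.25e-07). In TALL-1 it read 8.97, 9.02 and 9.26 with NVS-ZP7-3, against 9.36, 9.25 and 9.59 with DMSO. The RPMI-8402 groups were far apart, whereas those of TALL-1 overlapped narrowly and the fall there (-0.32 ± 0.12, adjusted p = 0.0484) was near the threshold. Its adjusted p-values ran from 0.0241 to 0.797 over the alternatives, and the call was lost in 23 of 36 fits. That TALL-1 value was -0.08 (adjusted p = 0.797) with the ACTB 3' minus 5' difference as a covariate. In SUPT11 MARS2 read 10.47, 10.42 and 10.50 with NVS-ZP7-3, against 10.70, 10.60 and 10.63 with DMSO (-0.18, adjusted p = 0.876). In P12-ICHIKAWA it read 10.29, 10.07 and 10.20 with NVS-ZP7-3, against 10.22, 10.60 and 10.57 with DMSO (-0.28, adjusted p = 0.217). Groups were apart in SUPT11 and overlapped in P12-ICHIKAWA.

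CARS2, the mitochondrial cysteine enzyme, fell in RPMI-8402 while its cytosolic counterpart rose. Its values were 9.11, 8.94 and 9.10 with NVS-ZP7-3, against 9.44, 9.52 and 9.42 with DMSO (-0.41 ± 0.097, adjusted p = 0.00248). WARS2, the mitochondrial tryptophan enzyme, read 8.77, 8.87 and 9.07 in RPMI-8402 with NVS-ZP7-3, against 9.29 on all 3 DMSO arrays (-0.38 ± 0.11, adjusted p = 0.00957). For both genes every treated array of RPMI-8402 was below every control array. In TALL-1 CARS2 read 9.21, 9.28 and 9.25 with NVS-ZP7-3, against 9.65, 9.17 and 9.34 with DMSO. In SUPT11 it read 8.60, 8.45 and 8.66 with NVS-ZP7-3, against 8.76, 8.74 and 9.04 with DMSO, and in P12-ICHIKAWA 9.82, 9.87 and 9.80 with NVS-ZP7-3, against 9.82, 9.91 and 9.87 with DMSO. The CARS2 groups were apart in SUPT11, without a call, and overlapped in TALL-1 and P12-ICHIKAWA. In TALL-1 the WARS2 groups overlapped (9.0, 9.18 and 9.22 with NVS-ZP7-3, against 8.94, 9.06 and 8.61 with DMSO). The WARS2 change there (0.27, adjusted p = 0.0591) was called under some alternatives, among them the ACTB covariate (0.53, adjusted p = 0.0155). A further WARS2 probe set changed by -0.02 in TALL-1. The RPMI-8402 fall of WARS2 was not called with the ACTB difference as a covariate (-0.22, adjusted p = 0.205) or without NVS-ZP7-3 replicate 1 (-0.32, adjusted p = 0.0544). Its SUPT11 arrays read 8.80, 8.64 and 8.52 with NVS-ZP7-3, against 8.56, 8.62 and 8.66 with DMSO. In P12-ICHIKAWA they read 8.87, 8.96 and 8.79 with NVS-ZP7-3, against 8.82, 9.15 and 8.88 with DMSO, and the groups overlapped in both lines. LARS2, the mitochondrial leucine enzyme, read 9.47, 9.77 and 9.29 in RPMI-8402 with NVS-ZP7-3, against 9.95, 10.03 and 9.83 with DMSO. Its groups did not overlap there, but the call (-0.43 ± 0.15, adjusted p = 0.0348) was lost without NVS-ZP7-3 replicate 1 or 3 or DMSO replicate 1 or 2 (adjusted p = 0.0904, 0.157, 0.0753 and 0.109) and in a fit of the line alone (0.0752), and in all in 9 of 36 fits under the alternatives. Its TALL-1 arrays read 8.67, 8.92 and 8.63 with NVS-ZP7-3, against 9.24, 8.89 and 9.12 with DMSO. That change (-0.34, adjusted p = 0.0875) was called under some alternatives, among them the ACTB covariate (-0.91, adjusted p = 0.000561). In SUPT11 LARS2 read 10.48, 10.39 and 10.39 with NVS-ZP7-3, against 10.58, 10.39 and 10.46 with DMSO, and in P12-ICHIKAWA 9.95, 10.37 and 9.86 with NVS-ZP7-3, against 10.40, 9.99 and 9.81 with DMSO. The groups overlapped in these 3 lines.

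AARS2, FARS2, NARS2 and YARS2 (alanine, phenylalanine, asparagine and tyrosine) also fell in RPMI-8402, by 0.28 to 0.43 on the log2 scale. The AARS2 groups overlapped there, and its call (adjusted p = 0.0409) was lost in 9 of 36 fits under the alternatives. NARS2 fell in TALL-1 too (-0.31 ± 0.066, adjusted p = 0.000956). PARS2, the mitochondrial proline enzyme, rose in TALL-1, where it read 7.72, 8.0 and 8.04 with NVS-ZP7-3, against 7.63, 6.95 and 7.22 with DMSO (0.65 ± 0.14, adjusted p = 0.00125). Its lowest treated array was close to its highest control array, and the call was lost with the ACTB difference as a covariate (0.52, adjusted p = 0.10) and in a fit of the line alone (adjusted p = 0.0718). In RPMI-8402 it read 7.76, 7.98 and 7.78 with NVS-ZP7-3, against 7.72, 7.72 and 7.71 with DMSO, apart but not called. In P12-ICHIKAWA PARS2 read 8.51, 8.46 and 8.53 with NVS-ZP7-3, against 8.49, 8.37 and 8.11 with DMSO, and in SUPT11 6.52, 6.43 and 6.23 with NVS-ZP7-3, against 6.31, 6.47 and 6.76 with DMSO. Those groups overlapped. HARS2, the mitochondrial histidine enzyme, had a smaller rise in TALL-1 (0.34 ± 0.12, adjusted p = 0.0317), with 1 control array at 9.51 against treated arrays at 9.55, 9.57 and 9.54. That call was lost in 8 of 36 fits under the alternatives. HARS1 and HARS2 face away from each other on chromosome 5 with annotated starts 85 bases apart, and in TALL-1 HARS1 stood at -0.17 ± 0.086. EARS2, IARS2, RARS2, SARS2 and VARS2 (glutamate, isoleucine, arginine, serine and valine) were called in no line, and SARS2 lay at 3.70 to 5.09 on every array, not far above the floor.

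For 14 amino acids both the cytosolic and the mitochondrial enzyme were measured, with EPRS1 standing for glutamate and for proline. In RPMI-8402 the cytosolic change was above the mitochondrial one for 11 of 14, with a median difference of 0.51. The difference was widest for cysteine, where CARS1 rose and CARS2 fell, 1.74 in all. Alanine (1.62) and tryptophan (1.52) followed, again with the cytosolic enzyme higher and the mitochondrial one lower. Valine ran the other way at -0.91, as VARS1 fell and VARS2 stood at -0.09. In TALL-1 the cytosolic change was above for 9 of 14, with a median difference of 0.58, the widest for tryptophan (1.36) and the lowest for valine (-1.43). In SUPT11 12 of 14 and in P12-ICHIKAWA 11 of 14 had the cytosolic change on top, with median differences of 0.08 and 0.19. The plot of paired enzymes shows this separation for alanine, cysteine and tryptophan in TALL-1 and RPMI-8402.

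**Figure D4:**
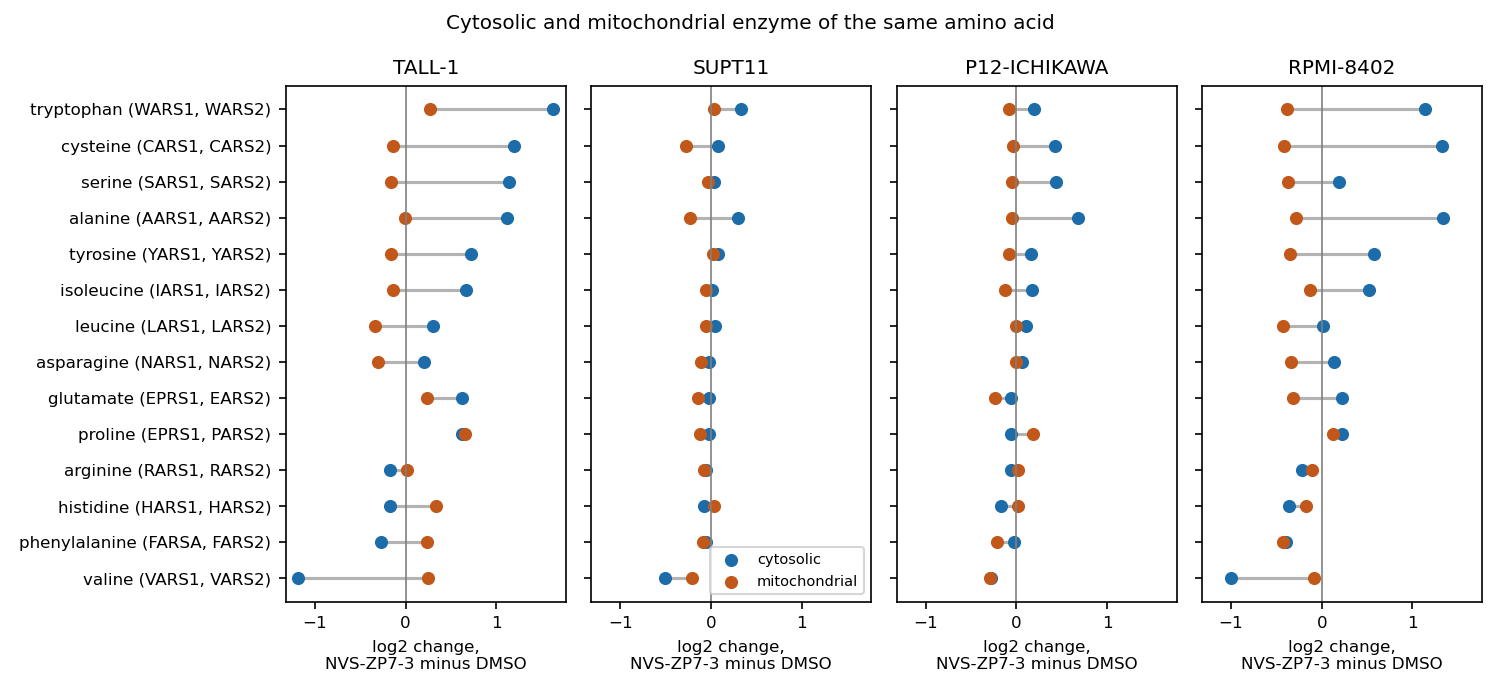
Log2 change (NVS-ZP7-3 minus DMSO) of the cytosolic (blue) and mitochondrial (orange) enzyme for 14 amino acids, joined by a grey line, 1 panel per line. Blue lies to the right of orange for 9 amino acids in TALL-1, 11 in RPMI-8402, 11 in P12-ICHIKAWA and 12 in SUPT11, while for valine it lies far to the left in TALL-1 and RPMI-8402.

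The size of the response differed among the lines for 10 of 17 cytosolic and 6 of 15 mitochondrial enzymes (limma F test of the interaction), against 35.8% of all genes. Set against the mean of the other 3 lines, the TALL-1 change was higher for 10 cytosolic enzymes and lower for none, against 16.9% and 11.8% of all genes. SARS1 (0.92 ± 0.090, adjusted p = 5.40e-07) and WARS1 (1.07 ± 0.11, adjusted p = 1.14e-06) differed most. The RPMI-8402 change was higher for AARS1, CARS1, IARS1 and WARS1 and lower for FARSB, LARS1 and SARS1, against 7.08% and 11.4% of all genes. For MARS2 it was lower by a wide margin (-1.07 ± 0.14, adjusted p = 3.16e-05). The FARSB and LARS1 calls were near the threshold (adjusted p = 0.0453 and 0.0494) and depend on the probe set used. A further FARSB probe set changed by 0.37 in RPMI-8402, against -0.46 in TALL-1, -0.44 in SUPT11 and -0.56 in P12-ICHIKAWA. Further LARS1 probe sets changed by 0.17, 0.11 and 0 in RPMI-8402, against 0.02 for the probe set used. The SUPT11 change was lower for 9 cytosolic enzymes (8.08% of all genes), CARS1 the most (-0.90 ± 0.085, adjusted p = 1.02e-06), and higher for none (7.17%). The P12-ICHIKAWA change was lower for 5 (4.73% of all genes), namely CARS1, EPRS1, GARS1, TARS1 and WARS1, and higher for none (3.65%). Of the mitochondrial enzymes, FARS2, PARS2 and WARS2 had a higher change in TALL-1 than in the other lines, MARS2, WARS2 and YARS2 a lower one in RPMI-8402 and MARS2 a higher one in SUPT11 (0.46 ± 0.14, adjusted p = 0.0382).

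Levels with DMSO differed among the lines for all 17 cytosolic and 14 of 15 mitochondrial enzymes, all but VARS2, but so did 96.3% of all genes. EARS2 had the widest span, with 9.65 ± 0.10 in P12-ICHIKAWA, 8.98 ± 0.13 in TALL-1, 7.90 ± 0.21 in RPMI-8402 and 7.51 ± 0.35 in SUPT11 (mean ± SD, n = 3). SUPT11 and RPMI-8402 were within their spread of each other there. RARS2 ranged over 2.10, with 11.69 ± 0.060 in SUPT11, 11.47 ± 0.19 in P12-ICHIKAWA, 10.91 ± 0.053 in TALL-1 and 9.59 ± 0.15 in RPMI-8402. SUPT11 and P12-ICHIKAWA lay close together and RPMI-8402 apart. MARS2 also spanned 1.83, from RPMI-8402 at 8.82 ± 0.21 and TALL-1 at 9.40 ± 0.18 up to P12-ICHIKAWA at 10.46 ± 0.21 and SUPT11 at 10.65 ± 0.049. Of the 17 cytosolic enzymes, TALL-1 had the lowest mean level with DMSO for 10 (EPRS1, FARSA, GARS1, HARS1, IARS1, KARS1, LARS1, RARS1, TARS1 and YARS1), RPMI-8402 for 6 (AARS1, CARS1, FARSB, NARS1, SARS1 and WARS1) and SUPT11 for VARS1. These enzymes include both ones that rose and ones that fell in the line concerned. All 3 arrays of the lowest line lay below all arrays of the next line for 6 of the 10 (FARSA, HARS1, IARS1, LARS1, RARS1 and YARS1) and 3 of the 6 (CARS1, NARS1 and SARS1). The matching shares of all genes were not computed, so these counts do not tell whether the enzymes differ from other genes.

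Genes of the ATF4 pathway, listed for their known link to these enzymes, were mostly higher with NVS-ZP7-3. Of 22 listed, 20 passed the filter and were tested, all but ALDH1L2 and NUPR1. Of these 20, 19 rose in TALL-1, 18 in RPMI-8402, 14 in P12-ICHIKAWA and 4 in SUPT11, and none fell in any line. Of all genes tested, 22.3%, 15.1%, 4.91% and 1.18% rose in the same order of lines. Their median changes were 1.16, 1.28, 0.70 and 0.16 in that order of lines. The transcript of ATF4 itself rose by 0.55 in TALL-1, 0.53 in RPMI-8402 and 0.20 in P12-ICHIKAWA and stood at 0.11 in SUPT11. DDIT3, which encodes the stress factor CHOP, rose in every line, by 3.28 in TALL-1, 4.56 in RPMI-8402, 2.71 in P12-ICHIKAWA and 2.51 in SUPT11. TRIB3, a pseudokinase induced by ATF4 and CHOP, rose by 4.45, 2.14 and 4.44 in TALL-1, P12-ICHIKAWA and RPMI-8402 and stood at 0.12 in SUPT11. CHAC1, a glutathione-degrading enzyme, rose in all lines. The rise was at least 3.88 in TALL-1 and at least 5.18 in RPMI-8402, where the DMSO means (2.25 and 2.32) were at or near the floor, 1.81 in P12-ICHIKAWA and 0.76 in SUPT11. ASNS, asparagine synthetase, was called in no line and had changes of -0.70 in TALL-1, 0.79 in RPMI-8402, 1.14 in P12-ICHIKAWA (adjusted p = 0.0567) and 0.18 in SUPT11. Its means with NVS-ZP7-3 and DMSO were low in TALL-1 (5.19 and 5.89) and RPMI-8402 (5.90 and 5.12), against 13.40 and 13.23 in SUPT11. PSAT1, among the 19 rises in TALL-1, had means of 3.55 with NVS-ZP7-3 and 2.18, the floor, with DMSO (adjusted p = 0.0431).

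XPOT, the exportin that carries mature tRNA out of the nucleus, rose in TALL-1 (0.78, adjusted p = 7.32e-08), P12-ICHIKAWA (0.36, adjusted p = 0.00331) and RPMI-8402 (0.53, adjusted p = 1.29e-05), the lines in which AARS1 and CARS1 rose. XPO5, which exports microRNA precursors and can carry tRNA, fell in TALL-1 (-0.45) and RPMI-8402 (-0.29). Of 8 tested partners of charging and editing, SEPSECS, which completes selenocysteine on its tRNA, rose in TALL-1 (0.44) and RPMI-8402 (0.37). MTFMT, which formylates the mitochondrial initiator tRNA after MARS2 has charged it, fell in RPMI-8402 (-0.63, adjusted p = 1.40e-05) and TALL-1 (-0.23, adjusted p = 0.0407). GATB and QRSL1, subunits of the mitochondrial complex that makes glutaminyl-tRNA, fell in RPMI-8402 (-0.45 and -0.25), and the third subunit GATC fell in TALL-1 (-0.25). PSTK, which acts before SEPSECS, fell in RPMI-8402 (-0.35), and no partner was called in SUPT11 or P12-ICHIKAWA. Of the 8 partners, 1 rose and 2 fell in TALL-1, where 22.3% and 19.6% of all genes did. In RPMI-8402, 1 rose and 4 fell, against 15.1% and 21.5% of all genes.

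Leaving out arrays or adding the ACTB difference to the fit moved some counts. With the ACTB 3' minus 5' difference as a covariate, 10 cytosolic enzymes rose in TALL-1 and 7 in RPMI-8402, against 11 and 9 without it. Without the 3 arrays with foreign transcripts the counts were 11 and 7. In P12-ICHIKAWA, where HBB was high on every NVS-ZP7-3 array, the count stayed at 3 with the HBB level as a covariate. HBB was at or near the floor on every DMSO array of this line, so that fit cannot tell its part from that of the treatment there. Calls over all genes in P12-ICHIKAWA went from 841 to 388 with this covariate. In a fit of P12-ICHIKAWA alone no cytosolic rise was called, and AARS1, CARS1 and SARS1 had adjusted p-values of 0.0878, 0.0802 and 0.0599. The 4 mitochondrial calls in TALL-1 became 1 in a fit of that line alone, 2 without the 3 arrays or without NVS-ZP7-3 replicate 2 alone, and 6 without DMSO replicate 2. The 8 mitochondrial falls in RPMI-8402 became 5 without NVS-ZP7-3 replicate 1 or DMSO replicate 2.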

How the data were processed

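Expression was measured on Affymetrix 3' arrays of 24 samples. The deposited table gives log2 expression for 54675 probe sets. GCRMA and limma are named, with no version or settings, per the submitters' processing notes. GCRMA subtracts a sequence-based background, which gives undetected probe sets a common floor (2.18). Arrays give no counts, and precision is limited by their number and by signal near the floor. The genome build behind the probe annotation was not given in the sources used here. Of the probe sets, 41097 name 1 gene, 1801 several and 11777 none, and 41043 of the first kind matched the RefSeq table (GRCh38.p14), which gave current symbols.

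The brightest probe set stood for a gene, and 10661 genes passed the filter. The model had 1 mean for each of the 8 groups and covered all 24 arrays (limma 3.58.1 under R 4.3.3, 16 residual and 18.0 total degrees of freedom). It was used with Benjamini-Hochberg adjustment over all genes tested and a threshold of 0.05. Promoters were searched in Python 3.11.15. The steps were tested on simulated data. Alternatives were quantile normalization, median centring, a stricter filter or none, averaged probe sets, an intensity trend, the replicate block, each line alone, a threshold of 0.01, ACTB or HBB covariates and leaving out arrays.

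The members, lists and tests were chosen with earlier results of these data known. Values on every array are given for the 6 cytosolic members with the largest mean change, the mitochondrial members with the largest called rises and falls (up to 3 each), the 4 with the widest range among lines, and WARS1, WARS2, GARS1, KARS1 and EPRS1 for their roles. HARS2 was added after its values were seen. A planned comparison of protein sequences was not made, since protein sequences were not used here.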

Additional observations from a re-analysis of the deposited data

Results flagged for a closer look

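The response to NVS-ZP7-3 differed among the 4 lines by an F test of the interaction (limma, adjusted over all genes) for 10 cytosolic synthetases. The adjusted p was 4.92e-08 for CARS1, 3.72e-07 for WARS1, 1.51e-06 for SARS1, 6.5e-06 for TARS1, 5.19e-05 for AARS1, 7.77e-05 for EPRS1 and 9.7e-05 for IARS1. It was 0.000383 for YARS1, 0.000501 for GARS1 and 0.00181 for LARS1. For the mitochondrial synthetases it was 0.000122 for MARS2, 0.0178 for WARS2, 0.0197 for NARS2, 0.0306 for FARS2, 0.0344 for PARS2 and 0.0486 for YARS2. The same test called 35.8% of all genes, and the 6 of 15 mitochondrial synthetases are near that share.

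Outside the synthetases, HBB and the lysozyme gene LYZ, which mark red and myeloid cells, were higher in P12-ICHIKAWA with NVS-ZP7-3 than with DMSO. HBB was higher by at least 6.97, since its mean with DMSO (2.22) was at the floor, and LYZ by 3.63. Their part in the synthetase values was not tested. The fit with the HBB level as a covariate cannot tell it from the treatment in this line.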

How the results depend on the processing

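None of the 68 called values of members (in a line or on average) changed sign in 2424 fits under the alternatives. Over 37 alternatives, 10 of the 11 cytosolic rises in TALL-1 (all but NARS1), 7 of the 9 in RPMI-8402 (all but EPRS1 and NARS1) and none of the 3 in P12-ICHIKAWA were called throughout. Of the cytosolic falls, VARS1 in TALL-1 (1 of 3) and FARSA, HARS1 and KARS1 in RPMI-8402 (3 of 6) were. Of the mitochondrial calls, NARS2 in TALL-1 and CARS2, MARS2 and NARS2 in RPMI-8402 were called throughout. The mitochondrial calls in TALL-1 numbered 4, and 2 with no filter on low values, without the 3 arrays with foreign transcripts or at an adjusted p below 0.01, and 1 with each line fitted alone. With each line alone the cytosolic rises in P12-ICHIKAWA numbered 0, and with the mean of all probe sets the mitochondrial calls there numbered 1. The median change of cytosolic minus mitochondrial enzymes, 0.53 in TALL-1, 0.10 in SUPT11 and 0.53 in RPMI-8402, was 0.29, 0.036 and 0.46 with the mean of all probe sets, and 0.055 in SUPT11 with the HBB level as a covariate. The cause of these shifts was not tested, except that a line fitted alone leaves fewer arrays to estimate the spread. The mean of all probe sets takes in 14 further probe sets of members that stood under the filter. Among them is a TARS1 probe set with a mean of 2.2 that changed by 0.11 in TALL-1, against 0.52 for the probe set used. Leaving out the 3 arrays was chosen after seeing the data.

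Leaving out 1 array at a time gave 11 to 11 cytosolic rises in TALL-1, 0 to 0 in SUPT11, 3 to 3 in P12-ICHIKAWA and 7 to 9 in RPMI-8402. The mitochondrial calls numbered 2 to 6, 0 to 0, 0 to 0 and 5 to 9 in the same order, and the cytosolic minus mitochondrial median ran from 0.48 to 0.59, 0.027 to 0.13, 0.10 to 0.13 and 0.52 to 0.58. The response differed among lines for 13 to 17 members and the DMSO level for 31 to 32. Of the values of the 14 members given on every array, 33 lost and 6 gained a call in this way, as against 1641 that did not, and 34 lost and 8 gained one under the other alternatives, as against 854.

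Same-numbered arrays of a line did not all deviate together (correlations from -0.141 to 0.424), so the numbers were not taken as pairs. With the replicate block, 11 cytosolic enzymes rose in TALL-1, 8 in RPMI-8402, 3 in P12-ICHIKAWA and 0 in SUPT11, and 3, 6, 0 and 0 mitochondrial enzymes were called in that order. MARS2 in TALL-1 (adjusted p = 0.0779), LARS2 in RPMI-8402 (0.0577) and AARS2 and NARS1 in RPMI-8402 were not called with it. Signal over the floor limits SARS2 and the log2 scale cannot show a change below the floor.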
